A study of Mus musculus with 6 samples.

Results

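The genes described here encode the tenascins, the chondroitin sulfate proteoglycans, a link protein and a hyaluronan synthase of the brain extracellular matrix. They are *Tnc*, *Tnr*, *Bcan*, *Ncan*, *Vcan*, *Acan*, *Cspg5*, *Ptprz1*, *Has2* and *Hapln1*, and they were found by gene symbol: 10 of the 24421 genes listed. RNA was sequenced from astrocytes that had been purified with ACSA-2 magnetic beads (MACS) out of the hippocampus of adult male C57BL/6 mice of the genotype *Siglech* dtr/dtr, after cells bearing CD11b had been removed. In these mice the receptor for diphtheria toxin (DT) stands in the *Siglech* locus, which is used by microglia, so that an injection of DT kills microglia. Intraperitoneal PBS was given in 3 libraries (PBS group) and DT at 50 µg/kg in 3 libraries (DT group), tissue was taken 2 days later, and each library was made from a pool of 2 mice. Both groups carried the dtr allele on both chromosomes, so a mouse without it that received DT was not analysed here. A pool hides the spread between its mice, and p-values below measure the spread between the libraries of 3 experiments.

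Hyaluronan is a long sugar chain that *Has2* and its relatives spin out at the plasma membrane. Brevican (*Bcan*), neurocan (*Ncan*), versican (*Vcan*) and aggrecan (*Acan*) form the lectican family: they bind hyaluronan at their amino end, carry chondroitin sulfate chains in the middle and bind tenascins at their carboxyl end. The link protein encoded by *Hapln1* locks the lectican to hyaluronan, and tenascin-R (*Tnr*) holds several lecticans together. Such aggregates fill the space around synapses and build the perineuronal nets on neurons, and reactive astrocytes are known for adding chondroitin sulfate proteoglycans and tenascin-C (*Tnc*) to glial scars. The receptor phosphatase *Ptprz1*, whose secreted form is called phosphacan, and the membrane protein *Cspg5* (neuroglycan C) carry chondroitin sulfate on glial and neuronal surfaces.

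Promoter sequences show how differently these genes start, although the libraries measured RNA and nothing at the promoters. RefSeq promoters (build GRCm38.p6) were matched for *Tnc*, *Tnr*, *Bcan*, *Ncan*, *Vcan*, *Acan*, *Ptprz1* and *Hapln1*, and only the 250 bases before each RefSeq start were read. RefSeq starts can differ from the GENCODE gene coordinates given further below. Among the windows printed here, that of *Hapln1* lies inside the GENCODE gene and that of *Ncan* overlaps the start of the GENCODE gene. The lecticans with the highest, the next and the lowest RNA level are printed together with the link protein gene, 5′ to 3′ on the strand of the gene, and capitals mark each CG dinucleotide. *Bcan* lies at chr3:88000357-88000606 (minus strand), *Ncan* at chr8:70120845-70121094 (minus strand), *Acan* at chr7:79052976-79053225 (plus strand) and *Hapln1* at chr13:89540386-89540635 (plus strand).
Bcan: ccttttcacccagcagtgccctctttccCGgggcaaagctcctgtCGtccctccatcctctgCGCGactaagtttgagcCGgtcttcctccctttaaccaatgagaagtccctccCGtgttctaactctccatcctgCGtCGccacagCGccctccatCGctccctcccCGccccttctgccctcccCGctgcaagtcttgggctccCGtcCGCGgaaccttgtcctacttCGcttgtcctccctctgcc
Ncan: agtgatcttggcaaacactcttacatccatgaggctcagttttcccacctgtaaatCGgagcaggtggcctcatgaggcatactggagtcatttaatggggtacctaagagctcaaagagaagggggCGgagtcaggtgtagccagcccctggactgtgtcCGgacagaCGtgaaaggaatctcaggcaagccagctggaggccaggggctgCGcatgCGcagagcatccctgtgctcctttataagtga
Acan: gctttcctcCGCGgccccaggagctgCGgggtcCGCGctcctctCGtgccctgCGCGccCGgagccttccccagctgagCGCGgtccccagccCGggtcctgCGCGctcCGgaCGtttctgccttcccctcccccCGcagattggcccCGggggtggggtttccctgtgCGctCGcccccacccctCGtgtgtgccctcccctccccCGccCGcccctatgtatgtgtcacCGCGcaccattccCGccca
Hapln1: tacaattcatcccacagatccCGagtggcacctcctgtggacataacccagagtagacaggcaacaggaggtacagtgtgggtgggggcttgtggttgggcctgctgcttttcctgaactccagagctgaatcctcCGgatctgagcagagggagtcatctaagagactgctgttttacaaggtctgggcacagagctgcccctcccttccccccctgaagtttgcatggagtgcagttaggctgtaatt

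The window of *Bcan* held 16 CG dinucleotides, that of *Ncan* 6, that of *Acan* 26 and that of *Hapln1* 2, against a median of 6 (quartiles 2 and 16) over 32851 mouse promoters. The richest of these windows belonged to *Acan*, the lectican with the least RNA. On either strand, TATAAA stood in the windows of *Tnc* and *Ncan* and in 12.4% of all promoters. The letters TTCNNNGAA, the core bound by STAT factors, stood in 7.02% of all promoters and in no member window; TGANTCA, the AP-1 site, in 6.75% and in no member window; and the NFI site, TTGGC followed after 5 bases by GCCAA, in 0.0365% and in no member window. TATAAA did not overlap another searched pattern in a member window, and a window without a pattern says only that these letters are not there.

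The libraries held 21704891 to 32933975 reads assigned to genes. *Siglech* itself, the gene of the targeted locus, had 21, 71 and 42 reads in PBS replicates 1, 2 and 3 and 0 reads in each DT library, so its level was at least 14.0-fold lower in the DT group against a floor of 3 reads per library (limma, adjusted p = 0.00826). *Gfap*, the intermediate filament of reactive astrocytes, rose 3.80-fold (95% confidence interval 3.25 to 4.44; limma, adjusted p = 8.20e-05). The 13 astrocyte markers summed to between 29922 and 32153 TPM per library, with *Slc1a2*, the main glutamate transporter, at 9441 ± 120 TPM in the PBS group (SD, n = 3), so the defining markers of the labelled cell type were present.

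Levels between genes were compared in TPM, which divides by transcript length. *Bcan* was the highest of the 10 genes, with a mean over 6 libraries of 2200.4 TPM, above 99.8% of the 15137 genes tested. *Cspg5* (961 TPM), *Ptprz1* (755 TPM) and *Ncan* (520.0 TPM) followed, and these 4 genes made up 94.9 to 95.6% of the summed TPM of the group. *Hapln1* (103 TPM), *Tnc* (50.7 TPM), *Tnr* (33.1 TPM) and *Vcan* (32.0 TPM) formed a middle range. *Acan* (1.35 TPM) and *Has2* (0.658 TPM) were lowest, with 59 to 118 and 15 to 39 reads per library, so that counting error weighs on both. Most neighbours in this order were separated: each gene exceeded the next in 6 of 6 libraries, with no shared range, except *Tnr* and *Vcan*, whose ranges overlapped with *Tnr* higher in 4 of 6 libraries, and *Acan* and *Has2*, with *Acan* higher in 5 of 6.

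**Figure D1:**
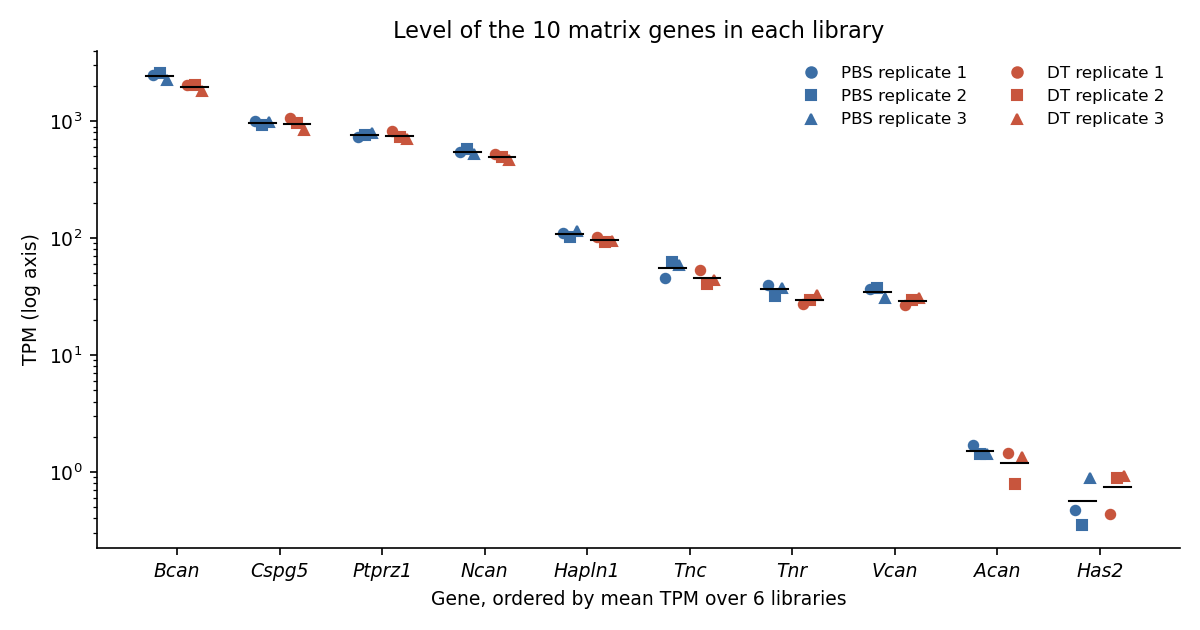
TPM (log axis) of the 10 genes in each PBS (blue) and DT (red) library, ordered by mean TPM; each symbol is 1 library and each black bar is the mean of 3. *Bcan* sits near 2200.4 TPM and *Has2* near 0.658 TPM, and the PBS and DT symbols of a gene lie close together compared with the distances between most genes.

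Between DT and PBS libraries these genes differed little, and most of them in the same direction. In the DT group 9 of the 10 genes had a lower mean on the log2(CPM + 0.1) scale. The median log2 fold change of the 10 was -0.24. Of all tested genes 51.3% were lower, with a median of -0.0052. Among tested genes averaging 20 CPM or more, 56.5% were lower, with a median of -0.017. All members except *Acan* and *Has2* reached that level. Of the 9 lower members, *Ptprz1* (-0.027) and *Cspg5* (-0.053) lay near 0. No member passed the test (limma, Benjamini-Hochberg adjusted p under 0.05): 0 of 10 were called higher, where 0.555% of all genes were, and 0 of 10 lower, where 0.159% were. Before adjustment, 5 of the 10 (*Bcan*, *Vcan*, *Tnr*, *Hapln1* and *Ncan*) had p under 0.05, as did 10.4% of all genes. The edgeR quasi-likelihood and exact tests on recovered reads also called 0 members, and DESeq2 called 1 (*Bcan*). DESeq2 called more genes in general: 98 of all tested genes were lower in it, where limma called 24. RNA was measured in bulk, so fewer cells of a type and less RNA per cell cannot be told apart.

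**Figure D2:**
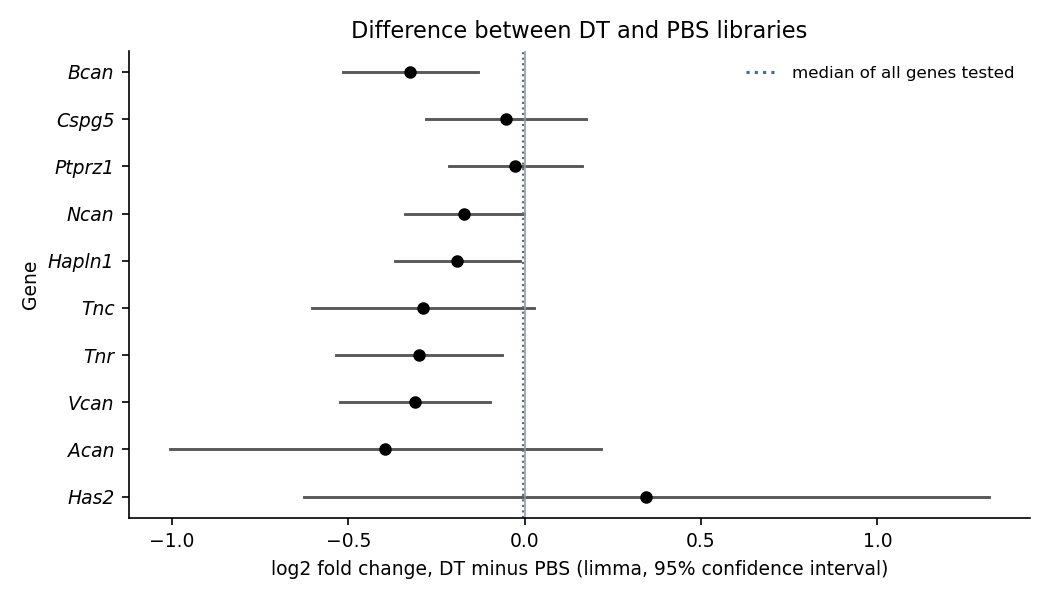
Log2 fold change (DT minus PBS, limma) of each of the 10 genes as a point with its 95% confidence interval as a line; the dotted line is the median of all genes tested (-0.0052). Only *Has2* lies to the right of 0, and its interval, from -0.63 to 1.32, is the widest.

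Among the lecticans, *Bcan* (chr3:87987531-88000230, minus strand; gene coordinates here and below are from GENCODE M21, mm10) stood at 2477, 2564 and 2265 TPM in PBS replicates 1 to 3 and at 2058, 2037 and 1802 TPM in DT replicates 1 to 3. All 3 DT libraries lay below all 3 PBS libraries. The group means were 2436 ± 154 and 1965 ± 142 TPM (SD, n = 3 each), and the fitted log2 fold change was -0.32 (SE 0.084, 95% confidence interval -0.52 to -0.13), a change of -20.1%. Its limma adjusted p was 0.200. The call depended on the setting: after quantile normalization the adjusted p was 0.0261 in limma, and in DESeq2 it was 0.0121. With the replicate number added to the limma fit as a block it was 0.0375. Over all alternatives the adjusted p ranged from 0.0121 to 0.456. Brevican is made mainly by astrocytes and the oligodendrocyte lineage.

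*Ncan* (chr8:70093085-70120873, minus strand), a lectican of both neurons and astrocytes, had 542, 579 and 524 TPM in the PBS libraries and 523, 491 and 462 TPM in the DT libraries. These groups were separate in TPM by the narrow gap between PBS replicate 3 and DT replicate 1, and overlapped in CPM. The log2 fold change was -0.17 (SE 0.074, 95% confidence interval -0.34 to -0.0026) with a limma adjusted p of 0.473. Because *Bcan* differed more than *Ncan*, the ratio of their TPM was 4.32 to 4.57 in the PBS libraries and 3.90 to 4.15 in the DT libraries, without overlap. *Bcan* made up 80.3 to 81.0% of lectican TPM in the PBS group and 78.5 to 79.6% in the DT group. This ratio was looked at after the values were seen and is given without a test.

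*Vcan* (chr13:89655312-89742509, minus strand), a lectican that oligodendrocyte precursor cells also make, stood at 36.6, 37.2 and 30.7 TPM in the PBS libraries and 26.7, 29.8 and 31.0 TPM in the DT libraries. In TPM the lowest PBS library fell inside the DT range, whereas in CPM the groups did not overlap. Its log2 fold change was -0.31 (SE 0.093, 95% confidence interval -0.52 to -0.10; limma, adjusted p = 0.290). *Acan* (chr7:79053483-79115099, plus strand), the lectican best known from perineuronal nets and cartilage, had 1.69, 1.43 and 1.42 TPM in the PBS group and 1.45, 0.782 and 1.33 TPM in the DT group. The groups overlapped and DT replicate 2 alone was clearly low. The interval of its log2 fold change, -1.01 to 0.22, was wide at this depth and included 0 (limma, adjusted p = 0.663).

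Neither tenascin separated the groups in every library. *Tnc* (chr4:63959785-64047015, minus strand), a glycoprotein of developing and injured tissue, had 45.5, 62.2 and 58.9 TPM in the PBS libraries and 53.5, 40.4 and 43.6 TPM in the DT libraries. PBS replicate 1 lay within the DT range, and the log2 fold change was -0.29 (SE 0.14, 95% confidence interval -0.60 to 0.027; limma, adjusted p = 0.521). *Tnr* (chr1:159523769-159931729, plus strand), which oligodendrocyte lineage cells and some neurons make, had 39.7, 32.1 and 37.6 TPM in the PBS libraries and 27.4, 29.5 and 32.5 TPM in the DT libraries. Only PBS replicate 2 and DT replicate 3 crossed. Its log2 fold change was -0.30 (SE 0.10, 95% confidence interval -0.53 to -0.065) with a limma adjusted p of 0.370. The ratio of *Tnc* to *Tnr* ran from 1.14 to 1.94 in the PBS libraries and from 1.34 to 1.95 in the DT libraries.

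The membrane proteoglycans were nearly level. *Ptprz1* (chr6:22875502-23052916, plus strand) had 734, 756 and 785 TPM in the PBS libraries and 825, 728 and 705 TPM in the DT libraries, so that the DT libraries lay on both sides of the PBS range. Its log2 fold change was -0.027 (SE 0.083), and the 95% confidence interval ran from -13.9% to 11.9% (limma, adjusted p = 0.945). *Cspg5* (chr9:110243783-110262576, plus strand) had 1012, 928 and 976 TPM in the PBS libraries and 1055, 961 and 832 TPM in the DT libraries, which were above, within and below the PBS range. Its interval ran from -17.5% to 12.7% around a log2 fold change of -0.053 (limma, adjusted p = 0.896). The sign of both turned when DT replicate 3 was left out, and that of *Ptprz1* also without DT replicate 2. The ratio of *Bcan* to *Ptprz1* was 2.89 to 3.39 in the PBS libraries and 2.50 to 2.80 in the DT libraries, without overlap; like the ratio to *Ncan*, it was chosen after its values were seen and was not tested.

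*Hapln1* (chr13:89539796-89611652, plus strand), the link protein, had 109.7, 102.8 and 115.4 TPM in the PBS libraries and 102.9, 92.7 and 94.1 TPM in the DT libraries. PBS replicate 2 and DT replicate 1 were level and the others were separate. The log2 fold change was -0.19 (SE 0.077, 95% confidence interval -0.37 to -0.014; limma, adjusted p = 0.445). *Has2* (chr15:56665627-56694539, minus strand), the hyaluronan synthase best known from injury and growth, was listed at 0.469, 0.350 and 0.882 TPM in the PBS libraries and 0.439, 0.892 and 0.915 TPM in the DT libraries. Low and high libraries occurred in both groups. Its log2 fold change of 0.34 (SE 0.43; limma, adjusted p = 0.829) was not distinguishable from 0 at 15 to 39 reads per library. The antisense gene *Has2os* overlaps *Has2*, and it averaged 2.00 reads per library.

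**Figure D3:**
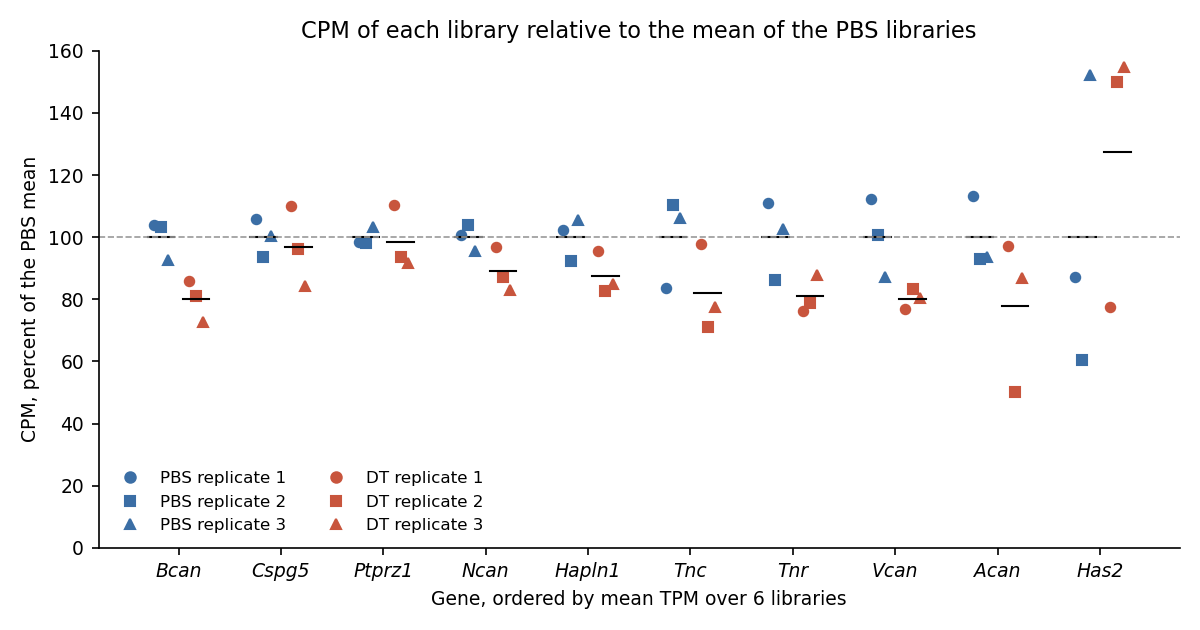
CPM of each library as a percentage of the mean of the PBS libraries, per gene; symbols are libraries (blue PBS, red DT), black bars are group means of 3 and the dashed line is 100%. All 3 DT symbols lie below the PBS symbols for *Bcan* and *Vcan*, those of *Ptprz1* and *Cspg5* straddle the line, and *Has2* scatters most.

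In CPM, 2 of the 10 genes (*Bcan* and *Vcan*) had all DT libraries below all PBS libraries, as did 7.57% of all tested genes, and 0 had all DT libraries above, as did 8.75%. In TPM the 2 separate genes were *Bcan* and *Ncan*, where 6.65% of all genes were lower without overlap, and 0 were higher, where 9.5% were. An exact two-sided permutation test on the TPM of 3 against 3 libraries cannot give a p under 0.1, and that value was reached by *Bcan* and *Ncan*. The number of separate genes in CPM was 7 without DT replicate 1, 4 without PBS replicate 2, 3 without PBS replicate 1, PBS replicate 3 or DT replicate 3, and 2 without DT replicate 2, beside 11.7 to 14.9% of all genes in those smaller sets. Leaving out a library can only keep or raise such a count, so these values are no sign of stability.

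The genes whose CPM followed that of *Bcan* most closely over the 6 libraries, among 7715 others with a mean CPM of at least 20, were *Kdm6a* (Pearson r of log2(CPM + 0.1) = 0.995), a histone demethylase, *Lyst* (0.991), a regulator of lysosomal trafficking, and *Fam13c* (0.990). *Ncan* was the nearest member, with r = 0.948 and position 58 in that order, followed by *Vcan* (0.836) and *Hapln1* (0.688). *Ptprz1* was the least alike of the other members above that level (0.347). The 6 points share the same libraries and scaling, and the values are descriptions.

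Each lectican gene lies next to a link protein gene, with 0 protein-coding genes in between. *Vcan* and *Hapln1* are 43659 bases apart on chromosome 13, *Bcan* and *Hapln2* 21519 on chromosome 3, *Ncan* and *Hapln4* 2222 on chromosome 8, and *Acan* and *Hapln3* 2 on chromosome 7. The genes of a pair run towards each other, except *Bcan* and *Hapln2*, which both lie on the minus strand. RNA levels within such a pair were unequal. In the PBS group the mean of *Bcan* was 2436 TPM beside 1.76 TPM of *Hapln2*, and that of *Ncan* was 548 TPM beside 1.91 TPM of *Hapln4*, whereas *Hapln1* (109.3 TPM) and *Hapln3* (7.997 TPM) exceeded their partners *Vcan* (34.9 TPM) and *Acan* (1.51 TPM). *Hapln1* therefore supplied most link protein RNA. None of *Hapln2* (log2 fold change -0.36), *Hapln3* (-0.45) and *Hapln4* (0.19) passed the limma test, with adjusted p of 0.779, 0.662 and 0.820.

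The wider pathway was followed in 11 lists with 104 genes, of which 103 were listed in the tables and 94 passed the filter on low values. The test called 3 of them higher and 0 lower, where 0.555% of all tested genes were called higher and 0.159% lower. Both hyaluronan-related calls were among the 10 tested receptors and binders of hyaluronan, where 2 were called higher and 0 lower. *Cd44*, the main cell-surface hyaluronan receptor, had 8.94 TPM at most in the PBS libraries and 25.3 to 27.3 TPM in the DT libraries, and rose 3.35-fold (95% confidence interval 2.70 to 4.17; limma, adjusted p = 0.000881). *Lyve1*, a hyaluronan receptor of lymphatic endothelium and of border-associated macrophages, rose from 1.53 TPM at most to 8.34 to 14.7 TPM, a log2 fold change of 3.21 (SE 0.30; limma, adjusted p = 0.00214). The most abundant binders, *Itih3* (log2 fold change 0.13) and *Itih5* (-0.10), did not pass.

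The remaining call was the metalloproteinase inhibitor *Timp1*, which had 0 reads in each PBS library and 81, 89 and 68 reads in the DT libraries. It rose at least 25.6-fold against a floor of 3 reads per library (limma, adjusted p = 0.00072). Of the 4 tested inhibitors, 1 was called higher and 0 lower, beside 0.555% and 0.159% of all tested genes. *Timp3* (log2 fold change -0.055) and *Timp4* (-0.34, limma adjusted p = 0.301) were far more abundant, at 433 and 324 TPM over the 6 libraries.

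In every other list the test called 0 genes. Of the 7 tested genes of hyaluronan synthesis and breakdown, 5 had a positive log2 fold change, with a median of 0.14. *Ugdh*, which makes the sugar nucleotide for hyaluronan and chondroitin, had 0.29 (limma, adjusted p = 0.404) and the hyaluronidase *Hyal1* had 0.13. The 21 tested enzymes that build and sulfate chondroitin chains ranged from -0.18 to 0.13 with a median of -0.0059, among them the polymerase *Chsy1* (-0.0059) and the linker enzyme *B3gat3* (-0.079). *Spock2* (-0.39, limma adjusted p = 0.374) and *Srgn* (-0.093) were the most abundant of the 7 other chondroitin proteoglycans, whose median was -0.026. Among 12 heparan sulfate proteoglycans the median was -0.027, with *Sdc4* at 0.29 (limma, adjusted p = 0.172) and *Gpc5* at -0.18. The 12 matrix proteases had a median of -0.055, and *Adamts1*, which cuts lecticans, had 0.57 (95% confidence interval 0.25 to 0.89; limma, adjusted p = 0.183), while *Mmp14* had -0.13. *Adamts1* passed in the edgeR exact test (adjusted p = 0.0321), in DESeq2 (0.00944) and without PBS replicate 3 (0.0310).

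Receptors of chondroitin sulfate and tenascins had a median log2 fold change of 0.047 over 11 tested genes, with the phosphatase *Ptprs*, a receptor of chondroitin sulfate chains, at 0.17 (limma, adjusted p = 0.349) and *Itgav*, an integrin subunit, at 0.028. The 6 ligands and partners of *Ptprz1* had a median of -0.021. Their most abundant member was the growth factor *Ptn*, at 2677 ± 24.8 TPM in the PBS group and 2350 ± 96.1 TPM in the DT group (SD, n = 3 each), with a log2 fold change of -0.20 (limma, adjusted p = 0.356). *Nrcam*, an adhesion molecule, had 0.034. The remaining tenascin genes were low: *Tnxb* had 3.82 TPM in the PBS group and a log2 fold change of -0.070, and *Tnn* stayed under the filter.

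**Figure D4:**
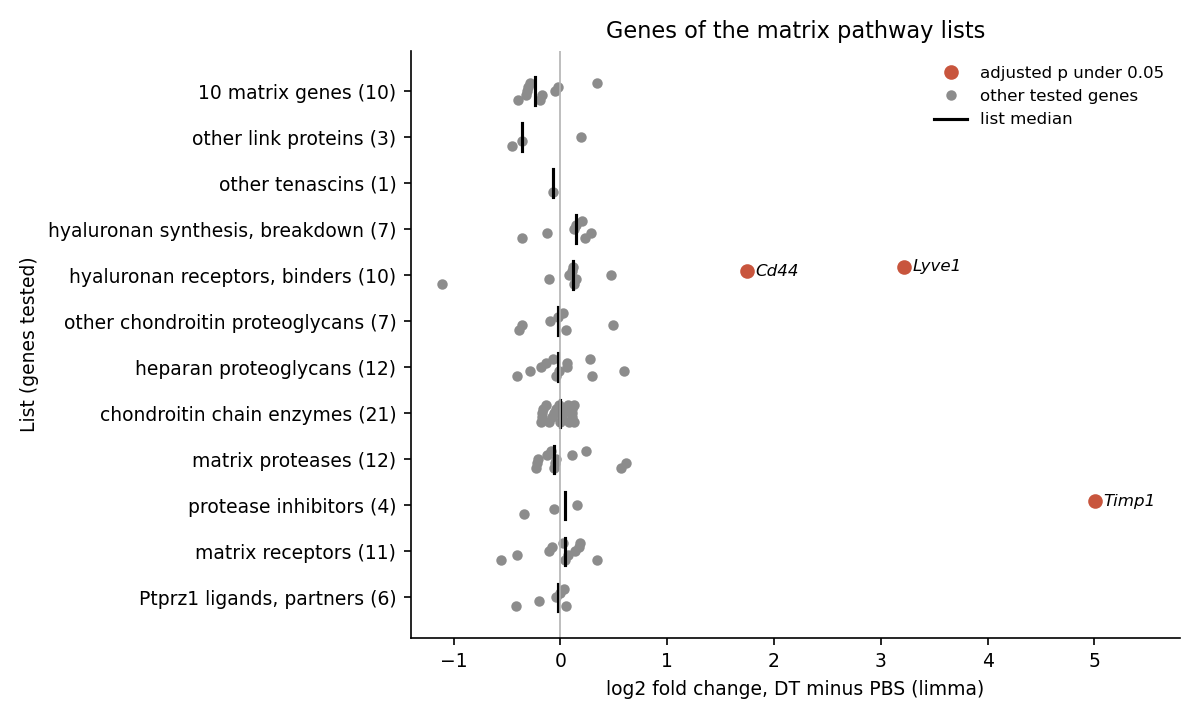
Log2 fold change (DT minus PBS, limma) of the 10 genes and of each tested gene in the 11 pathway lists, with the number tested in parentheses; red points passed the test and black bars are list medians. The 3 red points, *Cd44*, *Lyve1* and *Timp1*, lie far to the right, and most grey points lie near 0.

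Other cell types were followed by marker lists because several of these genes are not made by astrocytes alone. The 8 markers of oligodendrocyte precursor cells, which also make *Vcan*, *Tnr*, *Bcan* and *Ptprz1*, had a median log2 fold change of -0.36. Of these, 0 were called and 3 (*Pdgfra*, *Gpr17* and *Matn4*) had all DT libraries below all PBS libraries in CPM, as did 7.57% of all tested genes. Their summed level was 145 to 189 TPM in the PBS libraries and 106 to 143 TPM in the DT libraries, and none was at 0. The 7 endothelial markers had a median of -0.39, and all 7 were lower, with 0 called. Of these, 4 had all DT libraries below all PBS libraries in CPM, beside the same 7.57% of all tested genes. Their sum went from between 559 and 875 TPM to between 465 and 553 TPM. The 8 oligodendrocyte markers (median -0.25, 0 called) summed to 463 to 574 TPM in the PBS libraries and 411 to 506 TPM in the DT libraries, and the 12 neuron markers (median 0.11, 0 called) to 296 to 369.6 TPM and 258 to 453 TPM.

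Of the 10 microglia markers, 6 were called lower and 0 higher, beside 0.159% and 0.555% of all tested genes. Their median log2 fold change was -1.71, within a range of -4.08 to -0.035. Their sum was 124 to 144 TPM in the PBS libraries and 69.7 to 75.3 TPM in the DT libraries. Among all markers followed, none was at 0 in all 6 libraries, and *Siglech* was at 0 in each DT library. The border-associated macrophage list, which also holds *Lyve1*, had 2 of 5 tested genes called higher (*Mrc1* and *Lyve1*) and a median log2 fold change of 1.49. The sum of this list went from between 9.40 and 20.52 TPM to between 47.1 and 65.6 TPM. Choroid plexus markers varied most between libraries, from 106 to 2026 TPM in the PBS group and from 1249 to 3425 TPM in the DT group. Of these markers 0 of 6 were called, and their median log2 fold change was 1.26. The 5 ependymal markers (median 0.53, 0 called) summed to 380.0 to 501 TPM and 509 to 897 TPM. The 8 markers of pericytes and fibroblasts summed to 412 to 620.4 TPM and 460 to 576 TPM with 0 called, and the 6 markers of neural progenitors and immature neurons to 55.6 to 72.2 TPM and 62.8 to 67.6 TPM with 0 called. The part of any of these cell types in the values of the 10 matrix genes, or of *Lyve1* and *Cd44*, was not tested.

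**Figure D5:**
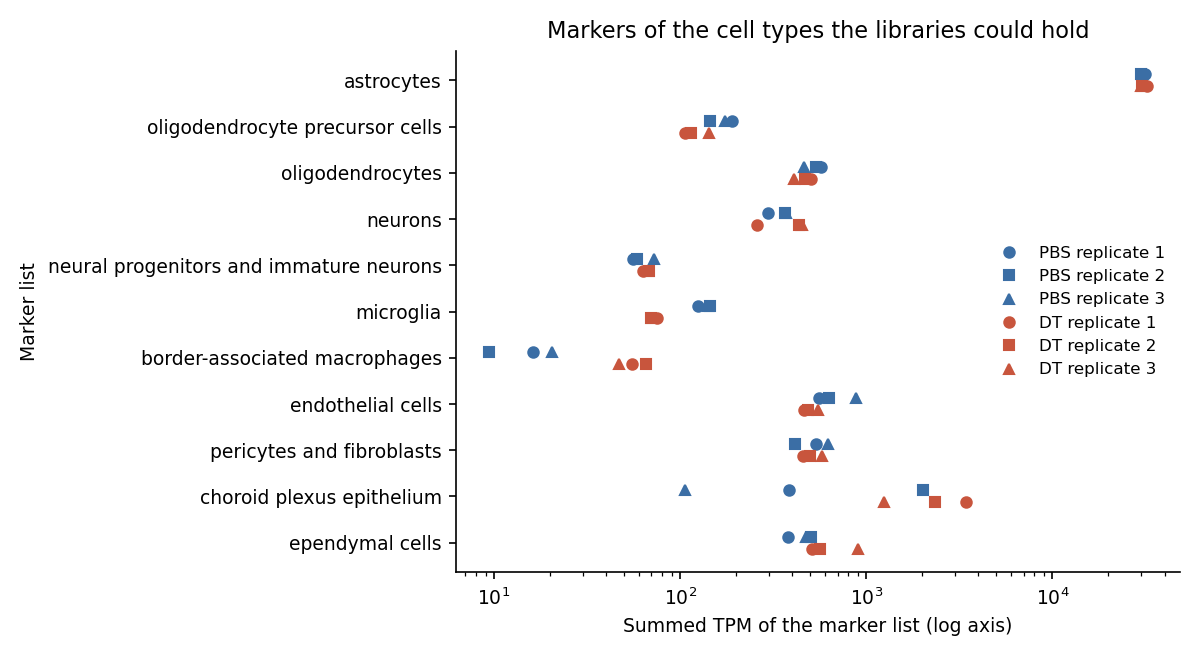
Summed TPM (log axis) of the markers of each cell type in each library; blue symbols are PBS and red symbols DT libraries, 1 symbol per library. Astrocyte markers are highest and level between groups, the sums of microglia, oligodendrocyte precursor and endothelial markers are lower in every DT library than in every PBS library, those of border-associated macrophages and ependymal cells are higher, and choroid plexus markers span the widest range.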

How the data were processed

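RNA-seq was performed on 6 libraries of hippocampal astrocytes. The authors trimmed reads with Trim Galore 0.5.0, mapped them to mm10 with HISAT2 2.1.0 using strand information, removed reads of rDNA regions with bedtools 2.25.0 and quantified genes with StringTie 1.3.5 and edgeR 3.24.3. The deposited TPM values are length-scaled levels per gene. The deposited CPM column is a signal scaled by TMM factors, so a library sums to between 980428 and 1026170; the design had assumed plain CPM and its test was kept. Deposited p-values, q-values and fold changes of the authors' own comparison were not used.

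The 15137 of 24421 genes whose mean CPM reached 0.5 were fitted on log2(CPM + 0.1) with limma 3.58.1 (variance trend, 6 libraries, group as the only term), with Benjamini-Hochberg adjustment over all of them and a threshold of 0.05. Fold changes on this scale understate those of low genes. CPM steps gave whole reads for 100% of values (tolerance 0.1 reads), between 21704891 and 32933975 per library, and the edgeR 4.0.16 quasi-likelihood test on these reads called 87 genes higher and 24 lower. No pair of replicates agreed within sampling noise. Alternatives were other pseudocounts, filters, scalings and tools, the replicate block and leaving out each library. The fit was tried on simulated reads in which 195 tested genes were changed by known folds. Of these genes 87.2% were called, and 7.10% of the calls were false, above the threshold of 0.05. The simulation gave every gene the same dispersion, which real genes need not share.

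Named genes were the 10 members, of each pathway list the genes past the test and the 2 with the highest mean TPM, the link protein genes, *Gfap* and *Siglech*, and the 3 genes most like *Bcan*. A few others were named after their values were seen: the genes that changed call in an alternative, the marker genes named beside their lists and *Has2os*. The members and lists were chosen with earlier results of these data known.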

Additional observations from a re-analysis of the deposited data

How the results depend on the processing

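Of the 10 genes, 9 had a negative log2 fold change in each alternative except without DT replicate 2 (8 genes) and without DT replicate 3 (7 genes), and the count called higher stayed at 0 in all 17. The count called lower was 1 (*Bcan*) after quantile normalization (log2 fold change -0.38), in DESeq2 (-0.32) and with the replicate block (-0.32), and 0 in the others. Of all tested genes, these settings called 32, 98 and 30 lower, in that order. Without DT replicate 3 the log2 fold change of *Cspg5* turned to 0.043 and that of *Ptprz1* to 0.023, and without DT replicate 2 that of *Ptprz1* turned to 0.0081; over all libraries left out in turn they ranged from -0.15 to 0.043 and from -0.11 to 0.023. The cause was not tested. Leaving out a library in turn moved *Bcan* between -0.38 and -0.26, with 0 members called.

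Replicate numbers were not taken as pairs. The paper says that the pools came from 3 independent experiments, but the labels do not say which numbers belong together. The deviations of same-numbered libraries correlated at 0.115, 0.0105 and 0.118, and those of unlike number at -0.124 to 0.0115. PBS replicate 2 was about as close to DT replicate 1 (0.0107) as to DT replicate 2. These values do not settle whether the libraries are paired. With the replicate block, 79 genes were called higher and 30 lower, *Bcan* had a limma adjusted p of 0.0375 and 2 pathway genes were called lower (*Timp4*, adjusted p = 0.0379, and *Spock2*, 0.0474). Pathway genes called higher numbered 6 in DESeq2 (with *Adamts1*, *Sdc3* and *Sdc4*) and between 3 and 6 with a library left out, where the 6 came without PBS replicate 3 (with *Adamts1*, *Stab1*, adjusted p = 0.0460, and *Gpc6*, 0.0486). Over all genes, calls higher and lower were 84 and 24; they were 191 and 72 in the edgeR exact test, 227 and 98 in DESeq2, 35 and 11 without a variance trend, and 39 to 72 and 9 to 20 with a library left out. *Cd44* and *Lyve1* passed in every alternative, and *Timp1* in each of the 16 in which it passed the filter. Depth limits *Has2* and *Acan*, whose intervals are the widest.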
